A study of Mus musculus with 25 samples.

Results

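Alx1 and Alx4 belong to the aristaless-like homeobox genes of the mouse. They were followed through 8 compartments of the developing palate as 2 genes of 37406 in the expression table, chosen by symbol. Alx1 (gene ID 216285) lies on chromosome 10 from 102470481 to 102491411, and Alx4 (gene ID 11695) lies on chromosome 2 from 93482591 to 93521496, both in mm9.

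The Alx genes encode transcription factors with a paired-class homeodomain, which binds DNA. They are known for their expression in mesenchyme that the cranial neural crest gives rise to around the nose and upper jaw, and loss of Alx1 or Alx4 is known to disturb the midface and skull. Alx4 is also known from the limb bud, where it restrains Sonic hedgehog expression to the posterior margin.

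RNA was taken by laser capture microdissection, in which cells are cut from a tissue section under the microscope, from wild type CD1 embryos at E14.5, soon after the palatal shelves meet. The anterior and the posterior palate were each divided in 2 ways, into medial and lateral and into oral and nasal compartments, so the medial and lateral libraries cover tissue that the oral and nasal libraries also cover. Each compartment had 3 libraries, and anterior nasal had 4, which makes 13 anterior and 12 posterior libraries of 25. All groups share strain, genotype and age, and nothing in the labels ties a library to an embryo. P-values therefore measure only the spread between these libraries, which may be partly technical. Embryos shared within an end of the palate would make them too small and embryos shared between the ends could make them too large, and which applies is not known.

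Expression was given as RPKM, the reads of a gene scaled to its length and to the total of its library. The values implied 1.64 to 6.56 M counted reads per library, with a median of 3.27 M, at a length of 2493 bases for Alx1. The study states a higher average of reads per sample. The mesenchymal markers (Prrx1, Twist1, Pdgfra, 3 collagens and Vim) summed to 662 to 1406 RPKM in the 25 libraries, and every library held them. The names of 6 alignments carried a further tag, ERK2_WT in 2 libraries (replicate 1 of posterior medial and of posterior lateral) and Tgfbr2_WT in 4. What the tags mean is not stated, and all 25 libraries are labelled CD1 wild type. The limma differences and ranges of Alx1 and Alx4 that use the ERK2_WT libraries are also given without them. Alx1 from anterior to posterior fell by 5.83 on the log2 scale without them (limma, adjusted p = 7.75e-09). The test of the ratio of Alx1 to Alx4, their correlation and the order of compartment means were not repeated without both ERK2_WT libraries.

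The coding sequences of Alx1 and Alx4 are most alike in the homeobox, and the stretch of 60 bases in which they match best is shown here because the values rest on reads of 50 bases, which a close relative could share. The sequences are from GENCODE M21 transcripts on GRCm38. They lie in exon 2 of 4 of each gene, at chr10:103025203-103025262 on the minus strand for Alx1 and chr2:93668538-93668597 on the plus strand for Alx4. Capitals mark the bases at which Alx1 and Alx4 differ.
Alx1: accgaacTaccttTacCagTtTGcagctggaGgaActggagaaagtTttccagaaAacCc
Alx4: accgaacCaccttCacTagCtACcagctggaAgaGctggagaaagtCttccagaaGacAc
Alx1 and Alx4 shared 49 of these 60 bases. Over all annotated transcripts and both strands, the longest run of identical bases was 19 between Alx1 and Alx4. No stretch of 50 bases was shared (0), so a read without mismatches from 1 of the 2 genes could not be placed on a transcript of the other.

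Alx1 was expressed throughout the anterior palate and was at a few RPKM or less in the posterior palate. The 3 anterior medial libraries held 39.0, 54.4 and 65.1 RPKM. The 3 anterior lateral libraries held 76.7, 96.1 and 89.0 RPKM. In anterior oral the levels were 90.9, 59.0 and 50.2 RPKM, and in anterior nasal 70.0, 68.0, 91.2 and 99.99 RPKM. Compartments next to each other in level overlapped, and all 13 libraries were well above those of the posterior palate.

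In the posterior palate the same gene was given by a few reads. Posterior medial held 1.94, 0 and 0.520 RPKM, and posterior lateral 1.10, 1.31 and 1.10 RPKM. Posterior oral held 0.698, 0.818 and 3.21 RPKM, and posterior nasal 1.52, 5.41 and 3.77 RPKM. In reads, the posterior libraries held 0 to 52.0 for Alx1, against 317.5 to 1014 in the anterior ones, so counting error alone was 13.9% to 44.7% of the value wherever a posterior library held any. In posterior medial replicate 2, where Alx1 was listed at 0, a level of up to 0.512 RPKM (3 reads) would be allowed by counting error.

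**Figure D1:**
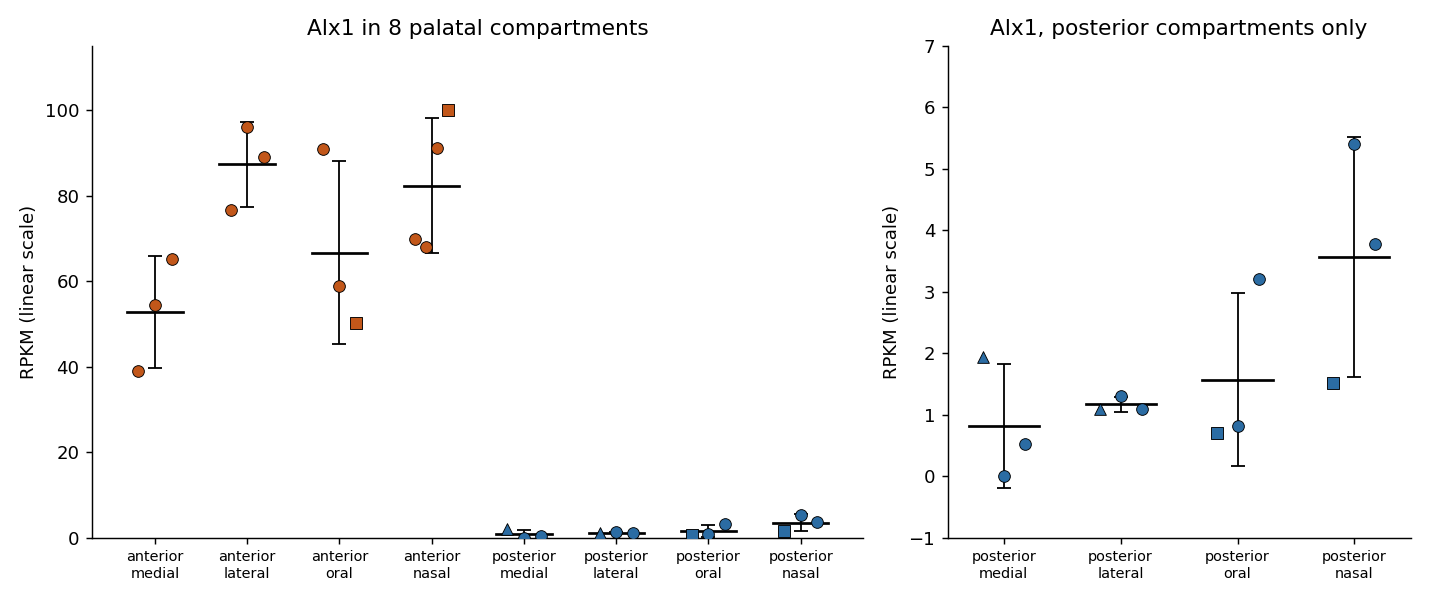
Alx1 level in RPKM on a linear scale in each library (left, all 8 compartments; right, the posterior compartments on a wider scale). Points are libraries, triangles those with ERK2_WT and squares those with Tgfbr2_WT in their names, horizontal lines are means and bars are 1 SD; the lowest anterior library, at 39.0 RPKM, lies above the highest posterior one, at 5.41 RPKM.

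The anterior mean was 73.0 ± 19.4 RPKM (SD, n = 13) and the posterior mean 1.78 ± 1.58 RPKM (SD, n = 12), a 41.0-fold difference of means. The lowest anterior library was 7.20-fold above the highest posterior one. All anterior libraries lay above all posterior ones for 0.163% of the 8608 genes tested, and Alx1 is 1 of these 14 genes; the ends did not overlap in either direction for 0.267%. On the scale of log2(RPKM + 0.1), on which the folds of low genes are understated, Alx1 fell by 5.77 from anterior to posterior (limma, SE 0.41, adjusted p = 4.21e-10). This was the 3rd largest absolute difference of all genes tested, of which 1.66% were called higher in anterior.

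The difference was present in each compartment on its own. The anterior mean of Alx1 was 64.5-fold the posterior mean in medial, 74.7-fold in lateral, 42.4-fold in oral and 23.1-fold in nasal, and the libraries did not overlap in any of the 4. The share of genes with all anterior above all posterior libraries was 7.41%, 10.8%, 3.32% and 6.46% in these compartments, since only 3 or 4 libraries stand on each side. By the limma contrast of posterior minus anterior, Alx1 fell by 6.69 in medial (SE 0.72, adjusted p = 1.57e-05), where it was the gene with the largest absolute difference of 11913. It fell by 6.10 in lateral (SE 0.72, adjusted p = 7.89e-05), fell by 5.59 in oral (SE 0.72, adjusted p = 0.000429) and fell by 4.64 in nasal (SE 0.67, adjusted p = 0.000860). The size in medial rests on the posterior libraries kept. Without the ERK2_WT library the posterior medial mean was 0.260 RPKM and the anterior mean 203-fold above it, and Alx1 fell by 7.70 (limma without both ERK2_WT libraries, adjusted p = 4.32e-06). Without posterior medial replicate 2, where it is listed at 0, it fell by 5.53. In lateral the difference without the ERK2_WT library was 72.7-fold, and Alx1 fell by 6.07 (limma, adjusted p = 7.36e-05). Genes called higher in anterior made up 0.873%, 0.336%, 0.243% and 1.21% of those tested in medial, lateral, oral and nasal.

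The epithelial marker list, with 9 of 9 genes in the table, was also lower in posterior libraries of some compartments. It summed to 48.9 to 93.5 RPKM in anterior lateral and 22.5 to 39.0 RPKM in posterior lateral, and to 46.7 to 107 RPKM in anterior oral and 25.1 to 45.99 RPKM in posterior oral, with no overlap in either. In medial it was 73.5 to 126 RPKM in anterior and 63.2 to 127 RPKM in posterior, and in nasal 68.5 to 148 RPKM and 36.6 to 69.2 RPKM, which overlapped. The list thus moved with Alx1 in lateral and oral. Other lists also separated. Nerve markers were lower in posterior lateral (11.7 to 15.1 against 18.1 to 22.0 RPKM). Osteoblast markers were lower in posterior medial (64.4 to 69.5 against 71.7 to 103 RPKM). Higher in posterior without overlap were mesenchyme, cartilage and red cell in lateral, cartilage, osteoblast and myeloid in oral, and osteoblast in nasal. The part of epithelial or other cells in the difference of Alx1 was not tested.

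Called higher in anterior in all 4 compartments were 12 genes (0.101%), and Alx1 is 1 of them. The others are Pax3, a paired-class factor of the neural crest, Eya1, a transcriptional coactivator, the forkhead gene Foxd2, the semaphorin and VEGF co-receptor Nrp1, the enamel matrix gene Ambn, the phosphodiesterase gene Pde5a, and Hpse2, Atp8a1, Hecw1, Msx1as and 9130206I24Rik.

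Alx4 was present in all 25 libraries, at both ends of the palate, and its anterior and posterior levels overlapped. Anterior medial held 33.7, 26.4 and 29.6 RPKM, and anterior lateral 27.9, 23.9 and 24.2 RPKM. Anterior oral held 40.4, 21.5 and 29.9 RPKM, and anterior nasal 54.9, 26.5, 23.3 and 28.0 RPKM. The anterior compartments all overlapped, and 1 library of anterior nasal, replicate 1, lay far above the other 3 of its group.

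The posterior levels of Alx4 were more spread. Posterior medial held 3.25, 16.2 and 7.33 RPKM, and posterior lateral 2.96, 32.9 and 18.4 RPKM. Posterior oral held 27.0, 21.5 and 17.2 RPKM, and posterior nasal 54.7, 31.1 and 37.8 RPKM. The 2 lowest values of the 25, 2.96 and 3.25 RPKM, came from the 2 libraries with ERK2_WT in their names, and the highest posterior value, 54.7 RPKM, from 1 of the 4 with Tgfbr2_WT. Alx4 rested on 123 to 2330 reads per library, with a counting error of 2.07% to 9.02%, far below this spread.

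**Figure D2:**
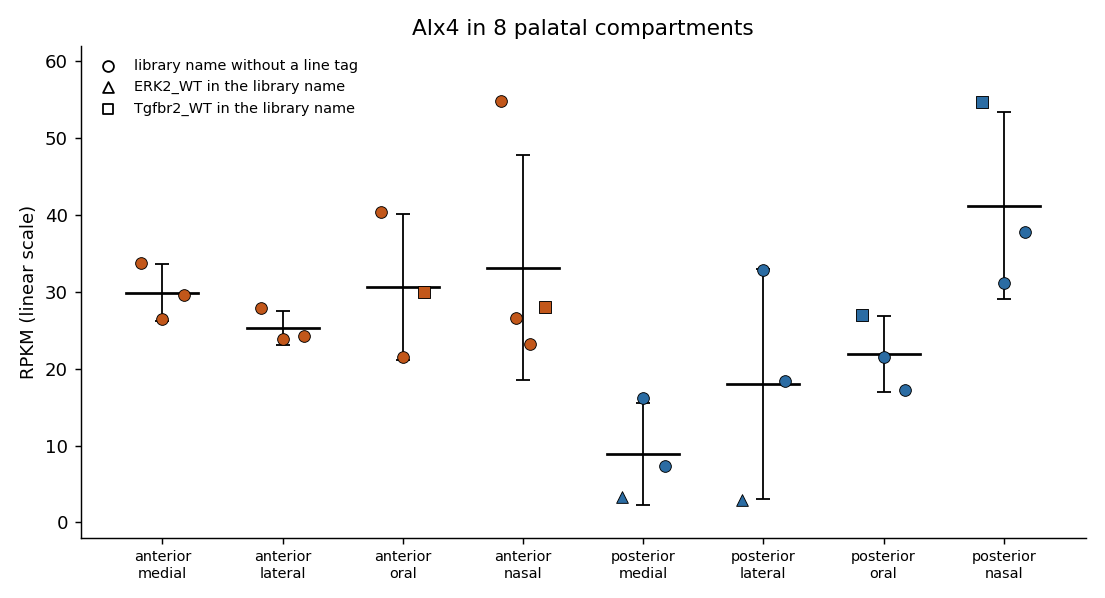
Alx4 level in RPKM on a linear scale in each library of the 8 compartments. Points are libraries, triangles and squares those with ERK2_WT or Tgfbr2_WT in their names, horizontal lines are means and bars are 1 SD; anterior and posterior libraries overlap, and the 2 triangles, at 3.25 and 2.96 RPKM, are the lowest of all.

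The mean of Alx4 was 30.0 ± 8.96 RPKM (SD, n = 13) in anterior and 22.5 ± 15.2 RPKM (SD, n = 12) in posterior libraries, and 6 of 12 posterior libraries lay below the lowest anterior one. On the log2 scale the difference, posterior minus anterior, was -0.80 (limma, SE 0.36, 95% confidence interval -1.54 to -0.05, unadjusted p = 0.0372, adjusted p = 0.288), which did not pass over all genes. Without the 2 ERK2_WT libraries it was -0.32 (limma, adjusted p = 0.514), and without all 6 tagged ones -0.50 (limma, adjusted p = 0.335).

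By compartment, the anterior mean of Alx4 was 3.36-fold the posterior mean in medial, 1.40-fold in lateral, 1.40-fold in oral and 0.805-fold in nasal. Medial was the only one of the 4 in which anterior and posterior libraries of Alx4 did not overlap. All anterior libraries lay above all posterior ones there for 7.41% of 11913 genes. The limma contrast there was -2.01 (SE 0.62, unadjusted p = 0.00428, adjusted p = 0.133). It was -1.44 without the ERK2_WT libraries (limma, adjusted p = 0.0620). The contrasts were -1.05 in lateral (95% confidence interval -2.35 to 0.26), -0.46 in oral (-1.76 to 0.84) and 0.36 in nasal (-0.86 to 1.58), none of which passed (limma, adjusted p = 1.00, 0.841 and 0.860). In either direction 1.66%, 0.865%, 0.512% and 1.91% of genes were called in medial, lateral, oral and nasal. Without the ERK2_WT library the lateral contrast of Alx4 was -0.04 (limma, adjusted p = 1.00), and its anterior mean was 2.55-fold the posterior mean in medial and 0.990-fold in lateral.

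**Figure D3:**
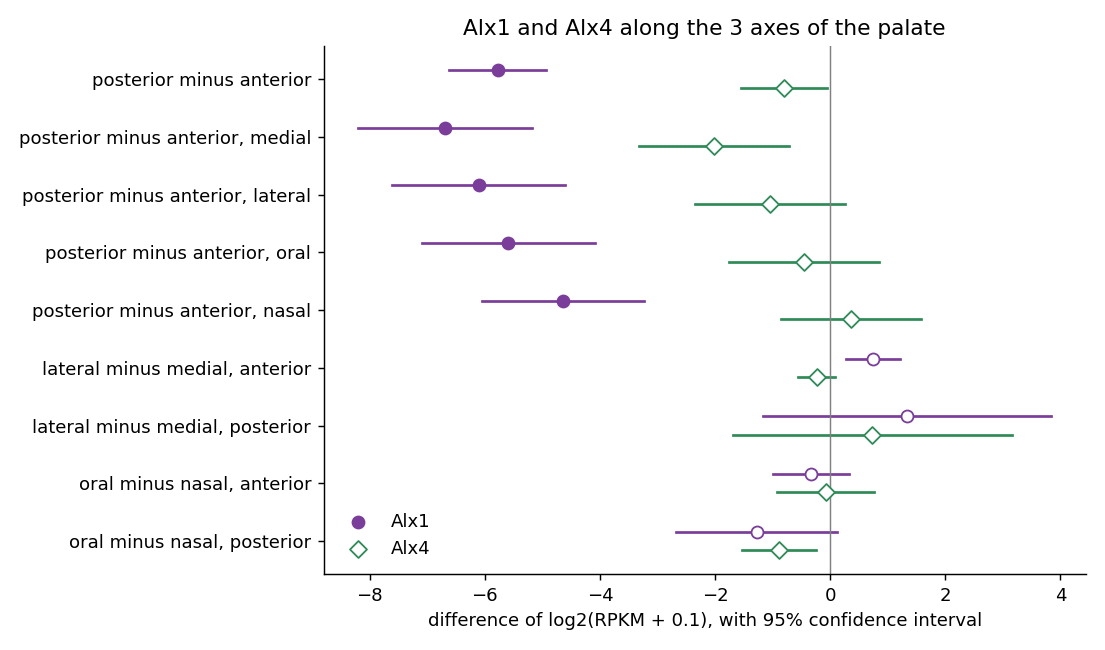
Differences of Alx1 (circles) and Alx4 (diamonds) on the log2(RPKM + 0.1) scale along the 3 axes, with 95% confidence intervals from limma; filled symbols have an adjusted p under 0.05. The 5 posterior minus anterior differences of Alx1, between -6.69 and -4.64, are the filled ones, and no difference of Alx4 or along the other axes is filled.

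The 2 genes were set against each other within each library, per length, as the ratio of their RPKM values. Alx1 was above Alx4 in 13 of 13 anterior libraries and in 0 of 12 posterior ones. The ratio of Alx1 to Alx4 lay between 1.16 and 2.20 in anterior medial, 2.75 and 4.02 in anterior lateral, 1.68 and 2.75 in anterior oral and 1.27 and 3.92 in anterior nasal. In the posterior palate it lay between 0 and 0.596 in medial, 0.0398 and 0.373 in lateral, 0.0259 and 0.187 in oral and 0.0278 and 0.174 in nasal. The highest posterior ratios in medial and lateral were those of the ERK2_WT libraries, in which Alx4 was low.

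The log2 ratio of Alx1 to Alx4, with 0.1 added to each, was 1.28 ± 0.59 (SD, n = 13) in anterior and -3.70 ± 1.82 (SD, n = 12) in posterior libraries. The difference of -4.98 gave p = 2e-05 in a two-sided permutation test of 100000 resamples, the smallest they can give, so the anterior-posterior change of Alx1 differed from that of Alx4. The length by which the values of Alx4 had been divided, worked out from their steps, was 7010 bases, and its 2 GENCODE M21 transcripts have 5253 and 7056. With the shorter transcript the RPKM of Alx4 would be 1.33 times as high and Alx1 would be above it in 11 of 13 anterior libraries and 0 of 12 posterior ones. The length of Alx1, 2493 bases, was not worked out but taken from its transcript shown above to set the scale. The length of Alx4 and the counted reads per library rest on it.

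Among the 13 anterior libraries the log2 levels of the 2 genes gave a Pearson r of -0.13 (permutation p = 0.666, adjusted over 2 relations 0.666) and a Spearman rho of -0.23 (permutation p = 0.459, adjusted 0.459). Among the 12 posterior libraries r was 0.18 (permutation p = 0.574, adjusted 0.666) and rho 0.38 (permutation p = 0.226, adjusted 0.451). Without the 2 libraries farthest from the median of Alx1, r was -0.02 and 0.18. No relation between Alx1 and Alx4 was detected within either end of the palate. The 12 posterior libraries include the 2 with ERK2_WT in their names, which held the lowest Alx4 levels (2.96 and 3.25 RPKM). Their Alx1 levels, 1.10 and 1.94 RPKM, were within the posterior range. The posterior relation was not tested without these 2 libraries, so its absence may depend on them.

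**Figure D4:**
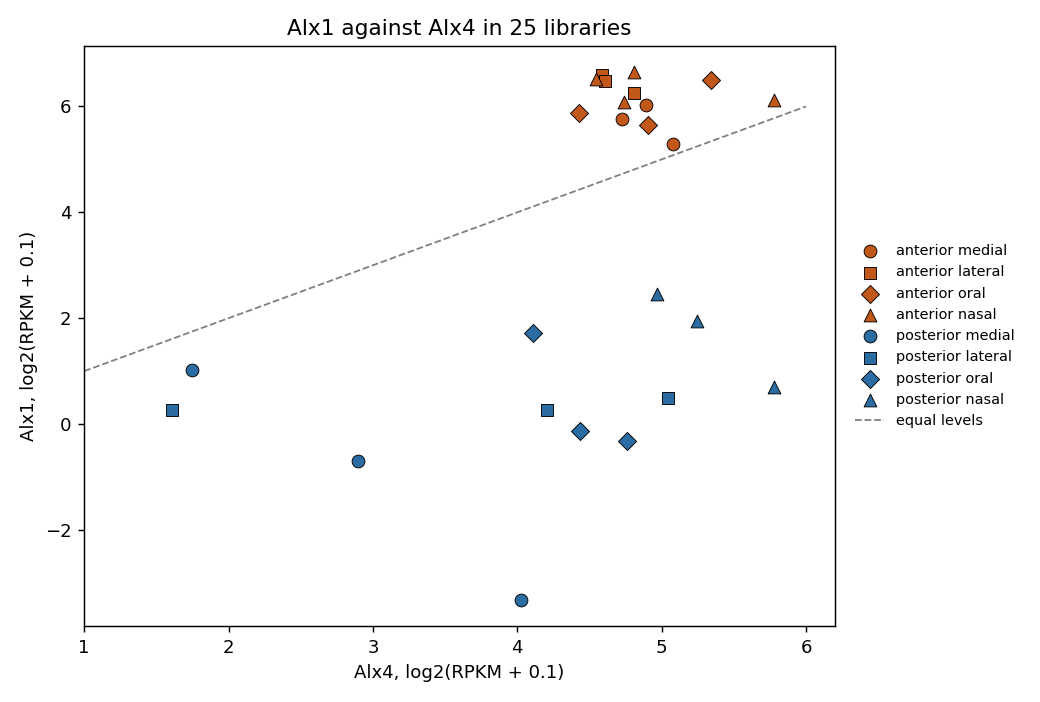
Alx1 against Alx4 in the 25 libraries, both as log2(RPKM + 0.1), with the compartment by symbol, anterior in orange and posterior in blue, and a dashed line at equal levels. The 13 anterior libraries lie above the line and the 12 posterior ones below it.

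The order of compartment means for Alx1 ran from anterior lateral (87.3 ± 9.85 RPKM, SD, n = 3) through anterior nasal (82.3 ± 15.8, n = 4) and anterior oral (66.7 ± 21.4, n = 3) to anterior medial (52.8 ± 13.2, n = 3). It went on through posterior nasal (3.57 ± 1.95 RPKM, n = 3), posterior oral (1.57 ± 1.41), posterior lateral (1.17 ± 0.12) and posterior medial (0.820 ± 1.00). All neighbours overlapped except anterior medial and posterior nasal. The order of Alx4 began with posterior nasal (41.2 ± 12.2 RPKM), followed by anterior nasal (33.2 ± 14.6), oral (30.6 ± 9.49), medial (29.9 ± 3.67) and lateral (25.3 ± 2.21). It ended with posterior oral (21.9 ± 4.91), lateral (18.1 ± 15.0) and medial (8.91 ± 6.60). All neighbours in the order of Alx4 overlapped, so no step in it exceeded the spread of the libraries.

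Along the mediolateral axis of the anterior palate, each of the 3 lateral libraries held more Alx1 than each of the 3 medial ones, as was so for 9.72% of genes. The difference, lateral minus medial, was 0.75 on the log2 scale (limma on these 6 libraries, SE 0.20, unadjusted p = 0.00656, adjusted p = 0.117) and did not pass, where 2.51% of 10427 genes did. Alx4 gave -0.23 there (limma, 95% confidence interval -0.55 to 0.08, adjusted p = 0.484). No lateral library of either end shared a sequencing run with a medial one, so run and compartment cannot be told apart from these libraries alone. A fit of all libraries separates them only through the other compartments. With the run in the fit of 8 compartments, Alx1 gave 1.11 in anterior (limma, SE 1.28). In that fit 0 genes passed, against 43 without the run. In the posterior palate, lateral minus medial was 1.33 for Alx1 (limma, 95% confidence interval -1.17 to 3.84, adjusted p = 0.957) and 0.73 for Alx4 (-1.69 to 3.15, adjusted p = 0.957). Without the ERK2_WT libraries these were 2.38 and 1.17 (limma, adjusted p = 0.744 for both). With 1 library left out they ran from 0.17 to 2.34 for Alx1, the lowest without posterior medial replicate 2 and the highest without replicate 1. For Alx4 they ran from 0.022 without posterior lateral replicate 2 to 1.74 without replicate 1; it was also 0.44 without posterior lateral replicate 3, 0.16 without posterior medial replicate 1 and 1.30 without replicate 2. The size for Alx1 also depended on the constant added, at 0.40 with 1 and 2.43 with 0.01. No gene of 10325 passed that limma comparison (0%), and 159 had an unadjusted p under 0.05.

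Along the oronasal axis both genes had higher means on the nasal side, with differences that did not pass. In the anterior palate, oral minus nasal was -0.33 for Alx1 (limma, 95% confidence interval -0.99 to 0.33) and -0.08 for Alx4 (-0.91 to 0.76), and 0% of 10684 genes passed, with 318 at an unadjusted p under 0.05. In the posterior palate it was -1.28 for Alx1 (limma, 95% confidence interval -2.68 to 0.12, adjusted p = 0.735). For Alx4 it was -0.89 (limma, SE 0.28, unadjusted p = 0.0125, adjusted p = 0.297), and 1.25% of 10587 genes passed. Each posterior nasal library held more Alx4 than each posterior oral one, as was so for 5.64% of genes.

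Posterior nasal, where both genes had their highest posterior mean, also differed in its bone markers. The summed level of the osteoblast list, 5 of whose 6 genes were in the table, was 376 to 546 RPKM in the 3 posterior nasal libraries and 43.6 to 161 RPKM in the other 22. The part of these cells in the levels of Alx1 and Alx4 was not tested, and in captured tissue more cells of a type and more RNA per cell cannot be told apart.

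Over the 4 posterior compartments the range of compartment means was 2.70 for Alx1 and 2.44 for Alx4 on the log2 scale (limma moderated F, unadjusted p = 0.0126 and 0.00565, adjusted p = 0.262 and 0.168; 1.47% of genes passed). Without the 2 ERK2_WT libraries it was 3.71 for Alx1, with adjusted p = 0.0225 by limma, and 1.87 for Alx4, with adjusted p = 0.0733. Without all 6 tagged libraries it was 4.21 for Alx1 (limma, adjusted p = 0.0436) and 1.65 for Alx4 (limma, adjusted p = 0.292). The call for Alx1 rests on posterior medial, whose remaining libraries then hold 0 and 0.520 RPKM, so its size depends on the constant added. Over the 4 anterior compartments the range was 0.75 for Alx1 and 0.30 for Alx4 (limma, adjusted p = 1.00 for both; 0.344% of genes passed).

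Whether an axis differed between the 2 ends of the palate was tested as an interaction. For the mediolateral axis it was 0.58 for Alx1 and 0.97 for Alx4, and for the oronasal axis -0.95 and -0.82 (limma, SE 0.85 to 1.02, none passed). Of all genes 0.0923% and 0.0755% passed. Without the ERK2_WT libraries the mediolateral interaction was 1.63 for Alx1 and 1.40 for Alx4 (limma, adjusted p = 0.496 and 0.479).

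Sequencing run, 1 of 8 by the alignment names, was uneven over the compartments, but 3 runs held libraries of both ends of the palate. In these the mean log2 level of Alx1, posterior minus anterior, was -5.96 in run 3 (2 anterior and 2 posterior libraries), -5.68 in run 7 (3 and 5) and -5.58 in run 8 (1 and 3). The fall of Alx1 within each run was close to that over all libraries. For Alx4 the same values were 0.41, -0.81 and 0.23, so its direction was not the same in the 3 runs. The differences within runs 7 and 8 mix compartments. Run 7 held 3 anterior medial libraries against 2 posterior medial, 2 posterior oral and 1 posterior nasal, and run 8 held 1 anterior lateral against 2 posterior lateral and 1 posterior nasal, whereas run 3 held 1 oral and 1 nasal library of each end. The end of the palate and the compartment are therefore not fully separated in the values of runs 7 and 8. The medial libraries of run 7 held 39.0 to 65.1 RPKM of Alx1 in anterior and 0 and 0.520 RPKM in posterior. For Alx4 they held 26.4 to 33.7 RPKM and 7.33 and 16.2 RPKM. The lateral libraries of run 8 held 89.0 RPKM of Alx1 in anterior and 1.10 and 1.31 RPKM in posterior. For Alx4 they held 24.2 RPKM and 18.4 and 32.9 RPKM. No run held both lateral and medial libraries, so lateral minus medial can be separated from run only through other compartments. The 2 ERK2_WT libraries were the only ones of their runs, and the 4 Tgfbr2_WT libraries were the only ones of run 3. Tag and run can therefore not be told apart for any of the tagged libraries, and the values of run 3 come from tagged libraries alone.

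The place of Alx1 and Alx4 among the paired-class homeobox genes changed from one end of the palate to the other. By mean RPKM over 32 such genes, Alx1 was the 3rd highest in the anterior palate, after Prrx1 at 148 RPKM and Shox2 at 129 RPKM, and Alx4 the 6th, after Prrx2 and Pax3. In the posterior palate Alx4 was the 3rd, after Prrx1 and Prrx2, and Alx1 the 8th. Of the other 31 listed genes 30 were in the table and 5 reached the minimum for the anterior-posterior test.

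**Figure D5:**
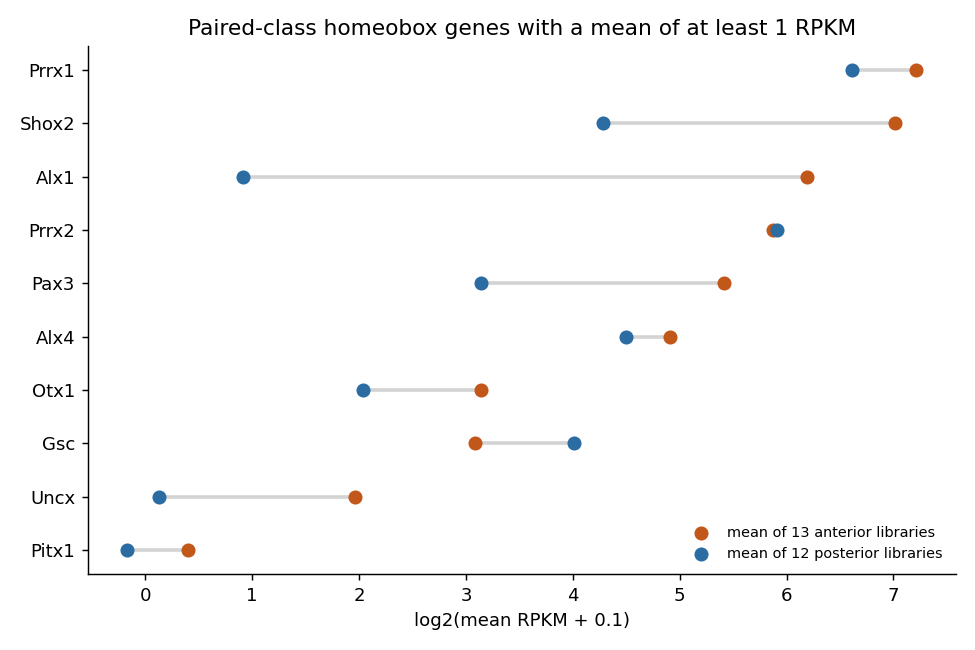
Mean level of the 10 paired-class homeobox genes with a mean of at least 1 RPKM in the anterior (orange) or posterior (blue) libraries, as log2(mean RPKM + 0.1), ordered by anterior level. The line between the 2 points is longest for Alx1, from 73.0 to 1.78 RPKM, and short for Alx4, from 30.0 to 22.5 RPKM.

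Of these 5 genes, 3 were higher in anterior and 0 in posterior, where 3.32% of all genes were called in either direction. Their median log2 difference was -0.69, beside 0.03 for all genes tested. Shox2, a factor of anterior palate growth, fell by 3.66 (limma, SE 0.60, adjusted p = 0.000288), from 129 to 19.4 RPKM. Pax3 fell by 2.57 (limma, adjusted p = 1.94e-06), from 42.5 to 8.73 RPKM. Prrx1, a marker of craniofacial and limb mesenchyme, fell by 0.69 (limma, adjusted p = 0.0236), from 148 to 97.4 RPKM. Prrx1 was low in the ERK2_WT libraries, and without them it fell by 0.45 (limma, adjusted p = 0.0151), with 3 of the 5 genes still higher in anterior and 0 in posterior. The difference of Alx1 was larger than that of each of these.

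Transcription factors known from the anterior or posterior palate were called in both directions, 3 of 10 higher in anterior and 3 of 10 higher in posterior, with a median of -0.07, beside 3.32% called and a median of 0.03 for all genes. Msx1 reached the minimum in anterior libraries alone (posterior at most 1.02 RPKM). Barx1 and Tbx22 reached it in posterior ones alone (anterior at most 8.41 and 7.06 RPKM). The study had named these genes, Shox2 and Meox2 as differing in the same data, so these counts are a description and not a test. Msx1 fell by 4.45 (limma, adjusted p = 8.90e-05), from 8.74 to 0.313 RPKM, and the posterior gene Barx1 was 4.72 higher in posterior (limma, adjusted p = 2.28e-07), at 81.2 against 4.13 RPKM. Alx1 had a larger absolute difference than either, at a higher anterior level than Msx1.

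Of 23 transcription factors of midfacial neural crest mesenchyme, the tissue in which Alx genes are best known, 15 were tested, 4 were higher in anterior and 1, Six2, in posterior. Their median was -0.45, beside 3.32% called and a median of 0.03 for all genes. Eya1 fell by 2.41 (limma, adjusted p = 6.39e-07), from 49.2 to 10.7 RPKM, and Tfap2a fell by 1.81 (limma, adjusted p = 4.59e-05), the other 2 being Msx1 and Pax3. Tfap2a, like Msx1, reached the minimum in anterior libraries alone (posterior at most 9.37 RPKM), so the count of this list was partly set by that minimum. The lists share called genes, so their counts are not separate. Msx1 is also in the palate list, Pax3 is also in the paired-class list, and Shox2 is in both of those. Of 13 hedgehog genes, the pathway that Alx4 is known to restrain in the limb, 9 were tested and 0 passed in limma, with a median of -0.04; none of the 9 had an adjusted p below 0.105. With 3.32% of all genes called, 0 of 9 is near the background. The target genes Ptch1 and Gli1 gave -0.26 and 0.57 (limma, adjusted p = 0.645 and 0.518).

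The genes most like Alx1 over the 25 libraries, by Pearson r of log2(RPKM + 0.1) among 11912 genes, were Hpse2 (r = 0.96), Msx1as (0.94), Atp8a1 (0.93), Col14a1 (0.91) and Foxd2 (0.91). Hpse2, a heparanase-like gene, went from 17.6 RPKM in anterior to 0.195 RPKM in posterior libraries, and Foxd2 from 5.76 to 0.191 RPKM. These r values mostly describe the step between the ends of the palate, since within the 13 anterior libraries r lay between -0.29 and 0.36 for the 5 genes and within the 12 posterior ones between 0.44 and 0.78. Reads of Msx1as cannot be told apart from those of Msx1 where the 2 overlap, because the library kit does not mark strand. Alx4 was 1203rd in likeness to Alx1, with r = 0.42.

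The genes most like Alx4 were the taurine transporter gene Slc6a6 (r = 0.81), Prrx1 (0.79), the neural cell adhesion gene Ncam1 (0.77), Thsd4 (0.76) and the histocompatibility gene H2-K1 (0.76). The 2 ERK2_WT libraries were low for 3 of them. Prrx1 was at most 45.0 RPKM in those 2 and at least 83.2 RPKM in the other 23. Without them r with Alx4 was 0.34 for Prrx1, 0.37 for Thsd4 and 0.20 for H2-K1, and 0.79 for Slc6a6 and 0.82 for Ncam1. The likeness of Alx4 to Prrx1, Thsd4 and H2-K1 thus rests on 2 libraries.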

How the data were processed

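The authors deposited RPKM values of 37406 genes in 25 libraries, made with GeneSpring from single-end reads of 50 bases (NuGEN amplification, Nextera tagmentation) without duplicates and without reads that aligned in more than 1 place. The submitters' processing notes name TopHat and mm9, and chromosome 1 of the table ends at 197117633, within that build. Read counts were not used here. Depth was worked out from steps of the values: 549 of 552 depth ratios between libraries were the same by way of another library, to 1e-05 on the log scale. These ratios give relative depth only, and the length of an Alx1 transcript set the absolute scale. Values stepped in fiftieths of a read, and intervals and limits from reads cover counting error only.

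Groups came from the sample labels. Run names and the ERK2_WT and Tgfbr2_WT tags came from column headings of a supplementary table. Limma 3.58.1 in R 4.3.3 was run on log2(RPKM + 0.1). The 12 posterior libraries were set against the 13 anterior ones for genes that reached 10 RPKM in 6 libraries, the study's own minimum. Lateral and medial, and oral and nasal, were contrasted on the libraries of each pair, for genes that reached 5 RPKM in 3 of them. Contrasts by compartment, interactions and the moderated F used 1 fit of 8 compartments to all libraries. Alx1 and Alx4 were kept in every fit, p-values were adjusted by Benjamini-Hochberg over all genes tested, and called means an adjusted p under 0.05. For anterior against posterior the study tested pooled reads with a count-based test, for which limma stands in because values are RPKM. For the other axes it used a moderated test, as limma does. The fits were tested on simulated data.

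The members, the gene lists and the 9 marker lists were chosen with earlier results of these data known. Genes named are the members, the 5 genes most like each member, and up to 3 called genes of each list with the largest difference; the genes called in all 4 compartments, Tfap2a, Six2, Prrx2, Ptch1 and Gli1 were named after their values were seen. The marker lists had these summed ranges over the 25 libraries, in RPKM: mesenchyme 662 to 1406, epithelium 22.5 to 148, skeletal muscle 0.367 to 137, endothelium 55.2 to 191, osteoblast 43.6 to 546, cartilage 19.7 to 143, nerve 11.5 to 61.8, red cell 133 to 667 and myeloid 26.4 to 80.7. Alternatives were other pseudocounts, minima and scalings, a variance trend, a block, run or compartment as covariates, and each library left out. Leaving out tagged libraries, also for the gene lists, and the run in the fits along the other axes, were added after the data were seen. Python 3.11.15 with scipy 1.17.1 and matplotlib 3.10.9 was used for the rest. Results for 1 listed gene are not reported here.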

Additional observations from a re-analysis of the deposited data

Results flagged for a closer look

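Alx4 in anterior nasal replicate 1 was 54.9 RPKM, against 23.3 to 28.0 RPKM in the other 3 libraries of its group. The gap to the nearest of them was 0.851 of the group's range, above the 95% critical value of Dixon's test for 4 samples. Alx1 in the same library, 70.0 RPKM, lay within its group. Anterior nasal is the only compartment with 4 libraries, so 2 groups, 1 for each gene, were examined, and chance marks about 1 in 20. Without this library the difference of Alx4 between anterior oral and nasal was 0.20 (limma), with oral higher.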

How the results depend on the processing

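The fall of Alx1 from anterior to posterior stayed between -6.14 and -4.87 on the log2 scale over 37 alternatives, with an adjusted p of at most 1.73e-05 in limma, and its falls in the 4 compartments were called in every alternative, at an adjusted p of at most 0.0298. The log2 ratio of Alx1 to Alx4 differed by -5.34 to -4.14 over 27 alternatives. Alx4 from anterior to posterior was -0.95 to -0.26 and was never called (adjusted p 0.190 to 0.855). Of the differences that were not called, some turned. The mediolateral interaction of Alx1 was -0.34 with a pseudocount of 1, -1.06 with quantile normalization and -0.58 to 1.60 when 1 library was left out, negative without posterior medial replicate 2, where Alx1 is listed at 0. Alx1, lateral minus medial in posterior, was -0.51 with quantile normalization. Alx4, posterior minus anterior in lateral, was 0.019 with the run as a covariate. Alx4, oral minus nasal in anterior, was 0.027 in the fit of 8 compartments with the run and -0.30 to 0.20 with 1 library left out, positive without anterior nasal replicate 1 or anterior oral replicate 2. The correlation of Alx1 with Alx4 over anterior libraries was 0.14 after median centring. The range over posterior compartments became called for Alx1 without the ERK2_WT libraries (3.71) and without all tagged ones (4.21), and was 1.53 to 3.71 with 1 library left out, called without posterior medial replicate 1 (adjusted p = 0.0173). For Alx4 it was 1.87 to 3.01 with 1 library left out, called without posterior lateral replicate 1 (adjusted p = 0.0225) or 2 (0.0424). The causes were not tested.

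Replicate numbers were not taken to pair the libraries, by a rule that every same-numbered pair correlate above 0.1. Paired libraries could also fail this rule, so it cannot decide whether the numbers pair them. Deviations of same-numbered libraries correlated at -0.44 to 0.41 over 84 pairs (median 0.035, 28 over 0.1). Those of other-numbered ones correlated at -0.46 to 0.59 over 189 pairs (median -0.020, 35 over 0.1). In all, 18 libraries were closer on average to their own number, a count that anterior nasal replicate 4 could not enter. With a replicate block Alx1 fell by 5.73 from anterior to posterior (limma, adjusted p = 1.33e-08), Alx4 by 0.80 (adjusted p = 0.338), and genes called went from 286 to 267 over all compartments, from 227 to 143 in nasal, from 262 to 157 for anterior lateral minus medial and from 9 to 4 for the oronasal interaction. Anterior nasal replicate 4 is the only library of its number, so the block also takes it out. Without that library alone Alx1 was -5.73, and the counts were 267 over all compartments, 142 in nasal and 3 for the oronasal interaction.

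Counts of genes called moved more than those of the members. Posterior minus anterior called 286 genes, and 160 with the run as a covariate to 452 with a lower minimum. Over all alternatives the counts were 99 to 1007 in medial (198 as reported), with the highest without posterior medial replicate 3, 15 to 177 in lateral (103), 13 to 73 in oral (61) and 34 to 317 in nasal (227). They were 0 to 318 for lateral minus medial in anterior (262) and 0 to 39 in posterior (0), 0 to 6 for oral minus nasal in anterior (0) and 0 to 143 in posterior (132). They were 0 to 36 and 0 to 12 for the interactions (11 and 9), and 1 to 98 and 56 to 454 for the ranges over anterior and posterior compartments (41 and 175). Depth limits Alx1 in the posterior palate, where 3 reads equal 0.192 to 0.517 RPKM.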
